A study of Mus musculus with 2 samples.

Results

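A set of 10 receptor and adaptor genes of myeloid cells was examined in liver areas with and without globules of mutant alpha-1-antitrypsin. They are the immunoglobulin (Fc) receptors Fcgr1, Fcgr2b, Fcgr3 and Fcgr4, the paired receptors Lilrb4a, Pirb and Sirpa, and the adaptors Tyrobp, Fcer1g and Hcst. Each was matched by symbol to probe sets whose annotation names 1 gene, which gave 1 probe set for each of the 10 genes, out of 30142 genes named on the array. The genes were proposed with results of these arrays in view, so their differences are a description and carry no test.

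The tissue came from untreated C57BL/6 mice of the PiZ line, fed standard chow and killed at 3 months of age. Every mouse carried the human ATZ transgene, the Z mutant of alpha-1-antitrypsin under its human promoter, and both groups share it. Its product polymerises in hepatocytes and collects as globules. Areas with globules and areas without them were cut by laser from frozen sections stained with Cresyl Violet, so the areas were chosen by morphology and not by a leukocyte marker. The globule-containing group is 1 array and the globule-free group is 1 array, each of RNA pooled from 2 mice. With no replicate, the spread between mice or areas is unknown, and each value below describes this pair of arrays alone. No mouse without the transgene was analysed here. Areas cut from tissue hold every cell in them, so more cells of a type and more RNA per cell cannot be told apart.

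Fc receptors bind the constant part of antibodies. Activating members such as Fcgr1, Fcgr3 and Fcgr4 signal through the adaptor Fcer1g, whose tyrosine-based activation motif (ITAM) recruits the kinase Syk. Inhibitory receptors such as Fcgr2b, Pirb, Lilrb4a and Sirpa carry tyrosine-based inhibition motifs (ITIMs) that recruit the phosphatases Ptpn6, Ptpn11 or Inpp5d. Tyrobp (DAP12) is a second ITAM adaptor, used by receptors such as Trem2, and Hcst (DAP10) is the adaptor that pairs with the natural killer (NK) receptor Klrk1. In liver, macrophages carry most of these genes, and Fcgr2b is also known in the sinusoidal endothelium.

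Values are log2 signals, and a difference is the globule-containing minus the globule-free log2 value. A gene counts as above the floor where the mean of both arrays reaches 4.76, the median of all probe sets naming 1 gene, and 15023 genes do. Probe sets of odour and pheromone receptors (Olfr and Vmn genes, 1721 in all) gave the background, set at their 95th percentile, which was 4.85 on the globule-containing and 5.04 on the globule-free array. Probe sets differ in how brightly they hybridise, so signals are compared between arrays and not between genes.

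All 10 genes lay above the floor. By the deposited values, 6 of them reached 2-fold higher with globules than without (Lilrb4a, Tyrobp, Fcer1g, Sirpa, Fcgr3 and Fcgr1), against 6.47% of all genes above the floor. With a signal below background raised to background, 5 did, since Fcgr1 then fell short. Counts of genes past 2-fold below use the deposited values, and where raising a dim signal changes a count, both are given. None was at least 2-fold lower, against 5.26% of all genes. Only Lilrb4a and Tyrobp among the 10 were at least 4-fold higher, against 1.42% of all genes. The median of the 10 differences was 1.04, and that of all genes above the floor was 0.05. Since the genes were chosen on this same contrast, nothing is read from these shares. Fcgr4 and Hcst were slightly lower, and the 10 genes did not move as a unit.

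**Figure D1:**
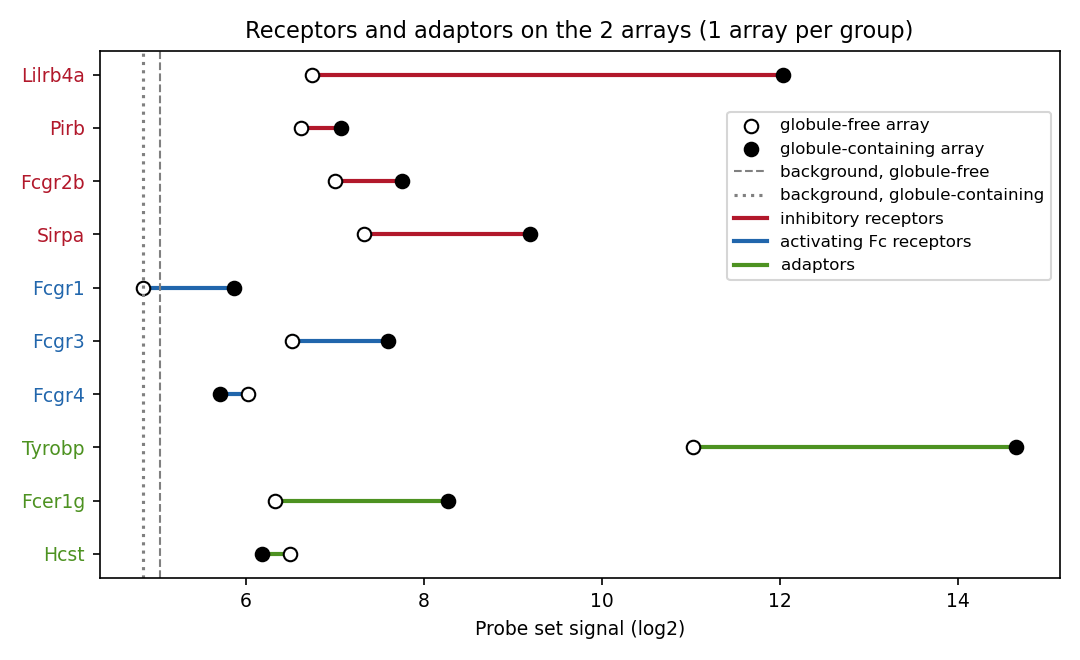
Log2 signal of each receptor or adaptor gene (rows) on the globule-free array (open circles) and the globule-containing array (filled circles), 1 array per group, with the background of each array as vertical lines. Filled circles lie to the right of open ones for 8 genes and to the left for Fcgr4 and Hcst, and the globule-free signal of Fcgr1 lies below the background of its array.

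Among inhibitory receptors, Lilrb4a stood far from the others. Lilrb4a, which restrains myeloid and mast cell activation, gave 12.03 (log2) with globules and 6.74 without. The globule-containing signal was 39.1-fold higher, rank 13 among the 15023 differences when ordered from the highest. Sirpa, the receptor for the "don't eat me" protein Cd47, had 9.19 against 7.33. This was 3.64-fold higher, at rank 264. Fcgr2b, the inhibitory IgG receptor, had 7.75 against 7.00, and Pirb, which binds major histocompatibility complex class I, had 7.07 against 6.62. Both lay within 2-fold, at 1.68-fold and 1.36-fold higher. The inhibitory receptors thus ran from 0.45 (Pirb) to 5.29 (Lilrb4a) on the log2 difference scale, all with the same sign.

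Probe sets of close relatives bear on how far the Lilrb4a and Pirb values belong to 1 gene. Lilr4b, also known as Gp49a, is the relative of Lilrb4a that sits next to it in the RefSeq gene table. Its probe set had 10.19 with globules and 6.74 without, 10.9-fold higher. Whether RNA of one gene binds probes of the other was not tested. For Pirb, a probe set naming the activating relatives Pira1 and Pira2 differed by 0.45, the same as Pirb itself to 2 decimals. A probe set naming Gm14548, Pira2 and Pira1 differed by 0.39, and one naming Gm15448 and Pirb by 0.34. Lilra6 differed by 0.24, while Lilra5 went the other way, by -0.30. Whether the Pirb probes also bind RNA of these relatives was not tested. Of the relatives of Sirpa, a probe set naming Sirpb1a and Sirpb1b had 5.35 against 4.83, and one naming Sirpb1a and Sirpb1c had 4.75 against 4.16. The globule-free signal of the first lay below background, and the second lay below background on both arrays, so neither is set against Sirpa.

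The activating Fc receptors showed small differences in both directions. Fcgr3, the low-affinity activating IgG receptor, had 7.60 with globules and 6.52 without, 2.11-fold higher. Fcgr1, the high-affinity IgG receptor, had 5.86 against 4.85. Its globule-free signal lay at background, so its fold is at least 1.77 with that signal raised to background, although the deposited values are 2.02-fold apart. Fcgr4, a receptor for IgG2 antibodies, had 5.71 against 6.02, which is 1.24-fold lower. Fcgr3 and Fcgr1 thus lie at the edge of 2-fold, at log2 differences of 1.07 and 1.01. With the median difference of all genes subtracted, Fcgr1 fell short of 2-fold at 0.96, and after quantile normalization Fcgr3 did, at 0.99.

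Fcgr2b, Fcgr4 and Fcgr3 follow each other among the protein-coding genes of chromosome 1 in the RefSeq table (GRCm38.p6), and the log2 differences in that order were 0.75, -0.31 and 1.07. The inhibitory receptor and the activating receptors of this cluster were not separated by sign. Upstream sequences are shown for Fcgr1, Fcgr3 and Fcgr4, since the letters GAGGAA, common in sites of the myeloid factor PU.1 (Spi1), occur close to the start in each. Each is the 250 bases before the annotated start, from RefSeq (GRCm38.p6), 5′ to 3′ along the gene. Capitals mark GAGGAA or its reverse complement. The windows are chr3:96293970-96294219 on the minus strand for Fcgr1, chr1:171059404-171059653 on the minus strand for Fcgr3, and chr1:171018676-171018925 on the plus strand for Fcgr4.
Fcgr1: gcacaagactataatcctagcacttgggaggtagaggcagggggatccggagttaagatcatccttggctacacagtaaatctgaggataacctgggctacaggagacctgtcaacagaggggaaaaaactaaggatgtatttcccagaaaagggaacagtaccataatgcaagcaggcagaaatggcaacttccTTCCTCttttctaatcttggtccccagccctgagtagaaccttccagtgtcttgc
Fcgr3: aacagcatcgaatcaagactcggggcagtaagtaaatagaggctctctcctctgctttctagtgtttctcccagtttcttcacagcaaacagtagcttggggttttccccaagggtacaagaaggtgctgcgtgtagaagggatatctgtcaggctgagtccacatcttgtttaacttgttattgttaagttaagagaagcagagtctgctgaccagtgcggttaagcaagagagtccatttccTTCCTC
Fcgr4: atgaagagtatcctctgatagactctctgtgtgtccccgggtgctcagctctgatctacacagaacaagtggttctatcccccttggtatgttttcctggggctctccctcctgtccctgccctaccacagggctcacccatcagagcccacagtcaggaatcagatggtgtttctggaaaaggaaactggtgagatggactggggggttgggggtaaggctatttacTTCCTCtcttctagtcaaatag
Each window held 1 match, in reverse complement, at bases 55 to 50 before the start in Fcgr1, 6 to 1 in Fcgr3 and 22 to 17 in Fcgr4. The genes holding the match did not share a direction, since the Fcgr4 signal was 1.24-fold lower.

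Promoter windows were listed for 7 of the 10 genes; Lilrb4a, Sirpa and Tyrobp have no entry. GAGGAA on either strand was found in 4 of the 7, in Pirb 3 times besides the Fcgr genes shown. Of 27025 genes with a window, 23.1% held it. A match of letters is a description and not evidence of binding. Spi1 itself has no probe set naming it alone and gives no value.

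The adaptors differed widely. Tyrobp gave 14.65 (log2) with globules and 11.02 without, 12.4-fold higher and rank 44 of 15023. Fcer1g, the common gamma chain of Fc receptors, had 8.27 against 6.33, 3.84-fold higher and rank 234. Hcst had 6.18 against 6.50, 1.24-fold lower. Tyrobp and Hcst are next to each other among protein-coding genes of chromosome 7 in the RefSeq table, and their log2 differences were 3.63 and -0.32. Fcer1g differed by 1.94, beside 1.07 for Fcgr3 and -0.31 for Fcgr4, which signal through it; for Fcgr1 the difference is at least 0.83.

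**Figure D2:**
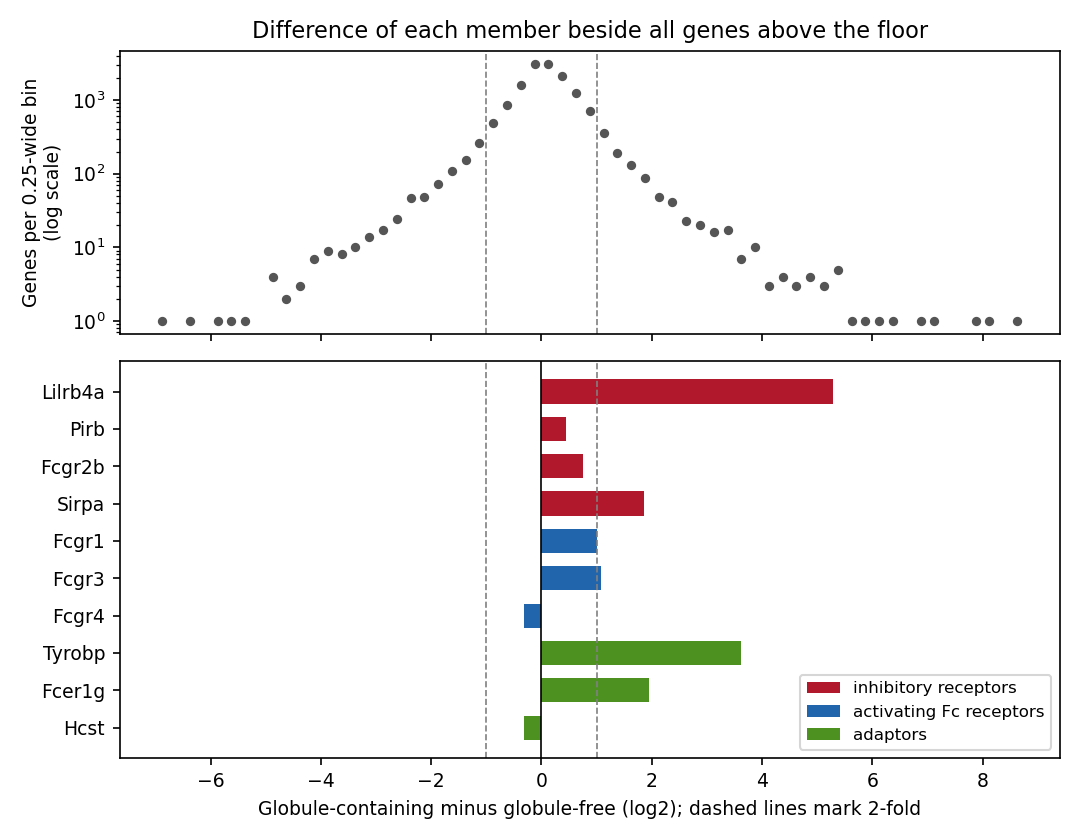
Upper panel, number of genes above the floor (log axis) by their log2 difference between globule-containing and globule-free areas. Lower panel, the same difference for each receptor or adaptor gene, coloured by role, with dashed lines at 2-fold. Lilrb4a (5.29) and Tyrobp (3.63) lie in the sparse right tail, while Fcgr4 (-0.31) and Hcst (-0.32) lie left of 0.

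Inhibitory receptors were compared with activating receptors and adaptors as groups. The 4 inhibitory receptors had a median difference of 1.30, and 2 of them were at least 2-fold higher. The 6 activating receptors and adaptors had a median of 1.04, and 4 of them were at least 2-fold higher, or 3 with Fcgr1 raised to background, which gave a median of 0.95. By the deposited values, the inhibitory median was 0.26 above the activating one. The sign of this gap rested on single genes: it was -0.30 without Lilrb4a and -0.30 without Sirpa. No separation of the roles can be read from these values. By receptor class, the activating Fc receptors alone had a median of 1.01 and the adaptors one of 1.94.

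Signalling proteins downstream of the receptors showed smaller differences than Tyrobp or Fcer1g. Of 22 listed ITAM signalling proteins, 13 lay above the floor, and 0 of these were at least 2-fold higher or lower. Their median difference was 0.49, and 11 of the 13 were positive, beside 8188 of all 15023 genes above the floor. The 11 include Fyn at 0.001 and Grb2 at 0.016, and Pik3cg was too near background for a fold. Pik3ap1, an adaptor for phosphoinositide 3-kinase, had 8.68 against 7.87. Prkcd, a protein kinase C, had 6.95 against 6.22. Lat2 and Blnk, linkers for phospholipase signalling, differed by 0.70 and 0.67. Syk, the kinase that binds ITAMs, lay below background on both arrays, as did Btk, Vav1 and Plcg2.

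Among phosphatases and inhibitory adaptors, 8 of 11 lay above the floor, 1 reached 2-fold higher and 0 reached 2-fold lower. The list median was 0.38. The member past 2-fold was Cbl, a ubiquitin ligase that ends receptor signalling, with 10.41 against 8.69, 3.31-fold higher. Its relative Cblb was 1.91-fold and the ITIM-binding phosphatase Ptpn11 1.80-fold higher, and the lipid phosphatase Inppl1 differed by 0.41. These genes are active in hepatocytes and other cells too, and which cells carried the signal was not measured. Ptpn6, the phosphatase SHP-1 of blood cells, differed by 0.15 and Inpp5d by 0.35.

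Other receptors that use the same adaptors were examined next. Of 27 listed, 20 were named by a probe set of 1 gene, 11 lay above the floor and 9 were at or below background on both arrays. Among the 11, 3 reached 2-fold higher, or 2 with dim signals raised to background, and 0 reached 2-fold lower. Their median difference was 0.55. Clec4n (Dectin-2), a fungal lectin receptor that signals through Fcer1g, was 3.08-fold higher. Clec4d was at least 2.74-fold and Cd300lb at least 1.64-fold higher, where the globule-free signals lay at background. Siglech, a Tyrobp partner of plasmacytoid dendritic cells, had 6.16 against 5.27. Trem2 had 5.30 against 4.68, with the globule-free signal below background. Klrk1, the partner of Hcst, lay below background on both arrays.

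Of 25 symbols listed as other inhibitory receptors, 16 lay above the floor, 1 reached 2-fold higher and 1 reached 2-fold lower. The list median was 0.15. The higher one is Lilr4b (Gp49a), the relative of Lilrb4a described above, listed under both of its symbols, Lilrb4b and Lilr4b. It was listed as a relative, and whether it is inhibitory was not examined. No other gene of this list reached 2-fold higher. The lower one is Ceacam1, an adhesion receptor also made by hepatocytes, with 11.53 against 12.96. Cd300a, a myeloid lipid receptor, differed by 0.71, and Cd72, a receptor of B cells and some macrophages, was at least 1.38-fold higher.

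Of 13 listed other immunoglobulin receptors, 4 lay above the floor and 10 were below background on both arrays, with Fcamr in both counts. Among the 4, 2 reached 2-fold lower, 0 reached 2-fold higher, and the median was -0.67. Pigr, the epithelial carrier of polymeric antibodies, had 11.44 against 15.35, 15.0-fold lower. Fcgrt, the neonatal Fc receptor that recycles IgG and albumin and is made by hepatocytes, had 9.33 against 10.59, 2.39-fold lower. Trim21, a cytosolic antibody receptor, had 5.12 against 5.14. Fcamr lay below background on both arrays, as did Fcer1a and Ms4a2, the other subunits of the IgE receptor that holds Fcer1g.

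No ligand of the receptors above the floor reached 2-fold higher. Of 23 listed, 17 were named by a probe set of 1 gene and 11 lay above the floor. Among the 11, 2 were at least 2-fold lower and the median was -0.12. B2m, counted among the 11, was saturated on both arrays and gives no fold. Apcs, serum amyloid P, a pentraxin that binds Fc receptors, was 2.95-fold lower, and Crp, another pentraxin, differed by -0.72. Fn1, fibronectin, a matrix protein listed as a Lilrb4a ligand, was 2.01-fold lower. Cd47, the ligand of Sirpa, had 13.83 against 13.22. The immunoglobulin heavy chain genes Ighg1 and Ighg2b and the joining chain Jchain lay below background on both arrays. Ighg2c, Ighg3, Igha and Igkc have no probe set naming them alone and give no value, so most antibody ligands were not measured.

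Effector genes of phagocytes differed among themselves. Of 15 genes of the phagocyte oxidase and actin machinery above the floor, 8 reached 2-fold higher and 0 reached 2-fold lower, while the other 7 lay within 2-fold. These genes had a median of 1.01. Cybb, the catalytic oxidase subunit, had 10.65 against 7.80, 7.19-fold higher. Myo1f, a leukocyte myosin, was at least 4.01-fold higher against background. Itgax and Itgb2, which pair as complement receptor CR4, were 3.72-fold and 3.43-fold higher. The oxidase subunit Ncf1 differed by 0.25 and the actin regulator Was by 0.18, and Ncf4 and Coro1a were too near background for a fold. Of 11 myeloid transcription factors above the floor, 2 reached 2-fold higher and 0 reached 2-fold lower. The list median was 0.32. Maf had 10.36 against 9.34 and Id3 7.08 against 6.07, at the edge of 2-fold. Tfec, a macrophage factor, differed by 0.63 and Cebpa, also a hepatocyte factor, by -0.61.

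**Figure D3:**
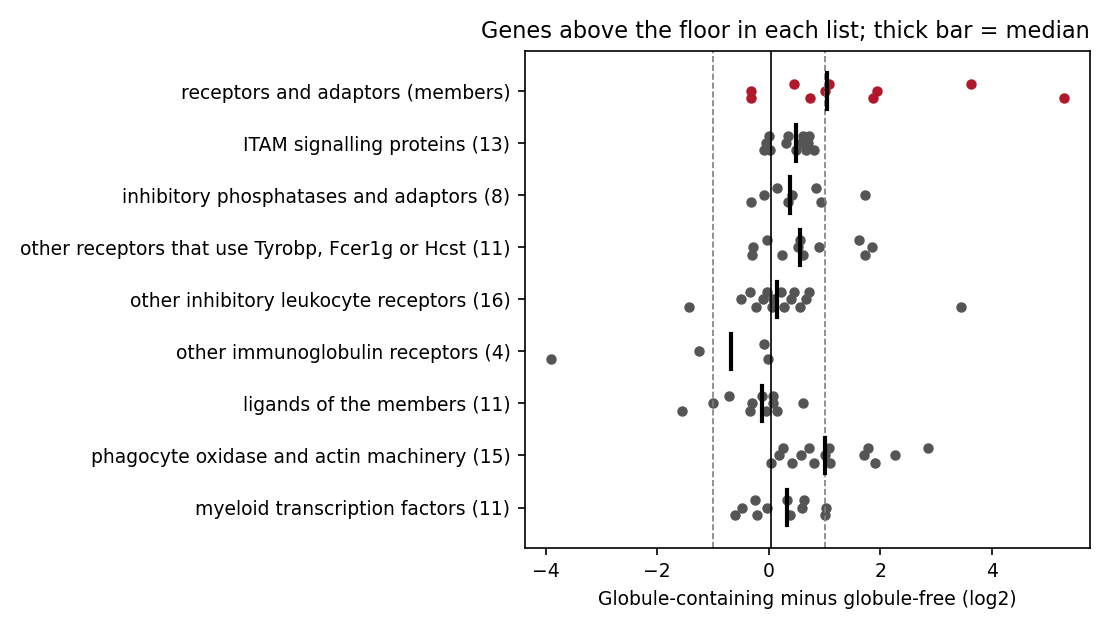
Log2 difference between globule-containing and globule-free areas for genes above the floor in 8 lists, with the number of genes in brackets and the 10 receptor and adaptor genes in red. Thick bars are list medians, the thin line is the median of all genes (0.05), and dashed lines mark 2-fold. The phagocyte oxidase and actin list has the highest list median (1.01), and the other immunoglobulin receptors have the lowest (-0.67).

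Markers of cells that can carry these receptors were higher, lower or little changed, depending on the list. Their part in the differences of the receptors was not tested. Of 12 macrophage markers, all above the floor, 5 reached 2-fold higher and 0 reached 2-fold lower. Their median difference was 0.70. The mean log2 signal of the list was 9.61 on the globule-containing and 8.01 on the globule-free array. Here and below, medians and counts past 2-fold are over genes above the floor. List means are over all genes of a list that have a value, also those below the floor. Lyz2 was 40.5-fold and Ctss 33.8-fold higher. Cd68 was 13.3-fold, Cd14 at least 4.96-fold and Csf1r 2.04-fold higher. Mertk differed by 0.97 and Mpeg1 by 0.42. The remaining macrophage markers differed little, with Adgre1 and Aif1 at 0.12, C1qa at 0.05, C1qb at 0.04 and C1qc at -0.08. Of 8 lipid-associated macrophage markers, 6 reached 2-fold higher. The list median was 2.24, and the list means were 8.55 against 5.46. Gpnmb was 277-fold and Atp6v0d2 33.8-fold higher. Of 7 resident Kupffer cell markers above the floor, 5 reached 2-fold lower and 0 reached 2-fold higher, at a median of -1.98. The list means, which include Cd163 below background, were 6.79 against 8.42. Clec4f was 8.28-fold and Cd5l 6.41-fold lower. Lilrb4a, Tyrobp, Fcer1g and Sirpa were thus higher where these Kupffer cell markers were lower and where some macrophage markers were higher and others near 0.

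Of 4 monocyte markers above the floor, 3 reached 2-fold higher, with a median of 1.25. The list means, which include F13a1 and Vcan below background, were 6.26 against 5.53. Ms4a4c was at least 2.99-fold and Plac8 2.51-fold higher, while Ly6c2 had 9.57 against 9.63. The median rested on the floor: it was 0.68 with no floor. With the floor at the 75th percentile only Ly6c2 remained, at -0.053. Of 6 neutrophil markers above the floor, 2 reached 2-fold higher, and the median was 0.19. S100a8 was 60.7-fold and S100a9 23.2-fold higher, while Ly6g differed by 0.27, Cxcr2 by 0.11, Csf3r by 0.09 and Camp by -0.04. Another 5 of the 12 listed, among them Elane, Mpo and Mmp8, lay below background on both arrays, and the list means were 5.72 against 4.74. Of 8 NK cell markers, 7 lay below background on both arrays, Ncr1, Gzma and Prf1 among them, and the list means were 4.09 against 4.29. Nkg7 was the exception, at least 1.09-fold higher. Hcst is best known in NK cells. It lay above background on both arrays, at 6.18 against 6.50, which is 1.24-fold lower. With most NK cell markers below background, a link of Hcst to these cells was not tested.

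Lymphocyte and mast cell markers were near background. For T cells 5 of 7, for B and plasma cells 5 of 7, and for mast cells and basophils 7 of 8 lay below background on both arrays. In the same order the list means were 4.55 against 4.55, 4.66 against 4.94 and 4.30 against 4.42. These means rest mostly on signals below background, which itself was 4.85 on the globule-containing and 5.04 on the globule-free array. No difference is read from them, nor from the NK cell means above. The highest of these differences were those of Cd8b1 (0.26), Cd3g (0.16) and Kit (0.48), while Cd79b differed by -0.31, Ighm by -0.12 and Mcpt8 lay at background. Of 8 dendritic cell markers, 4 lay above the floor and none was 2-fold apart, with Siglech at 0.89, Clec9a at 0.76 and Bst2 at -0.56. The other 4 (Flt3, Zbtb46, Xcr1 and Batf3) lay below background on both arrays.

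For sinusoidal endothelium, a known site of Fcgr2b, 0 of 11 markers were 2-fold apart, with a median of -0.10 and list means of 7.71 against 7.76. Clec4g differed by 0.61 and Cdh5 by -0.80, beside 0.75 for Fcgr2b. Stellate cell and fibroblast markers reached 2-fold higher for all 10 genes above the floor, at a median of 2.46. The list means, which include Des below background, were 9.27 against 7.02. Lum was 15.2-fold and Lrat 11.0-fold higher. Of 3 bile duct markers above the floor, 0 were 2-fold apart, and the median was 0.34. Epcam was at least 1.67-fold and Krt19 at least 1.05-fold higher, against globule-free signals below background. Sox9 differed by 0.24, and Krt7 and Cftr lay below background on both arrays. The labelled hepatocytes were present on both arrays, with list means of 16.2 against 17.1. Of 9 hepatocyte markers above the floor, 3 reached 2-fold lower and 0 reached 2-fold higher, at a median of -0.75. Alb was saturated on both arrays and Ttr on the globule-free array. Pck1 was 6.57-fold, Cps1 5.17-fold and Tat 2.65-fold lower in globule-containing areas. Apoa1 differed by -0.80, Hnf4a by -0.75, Asgr1 by -0.09 and Cyp2e1 by 0.12.

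**Figure D4:**
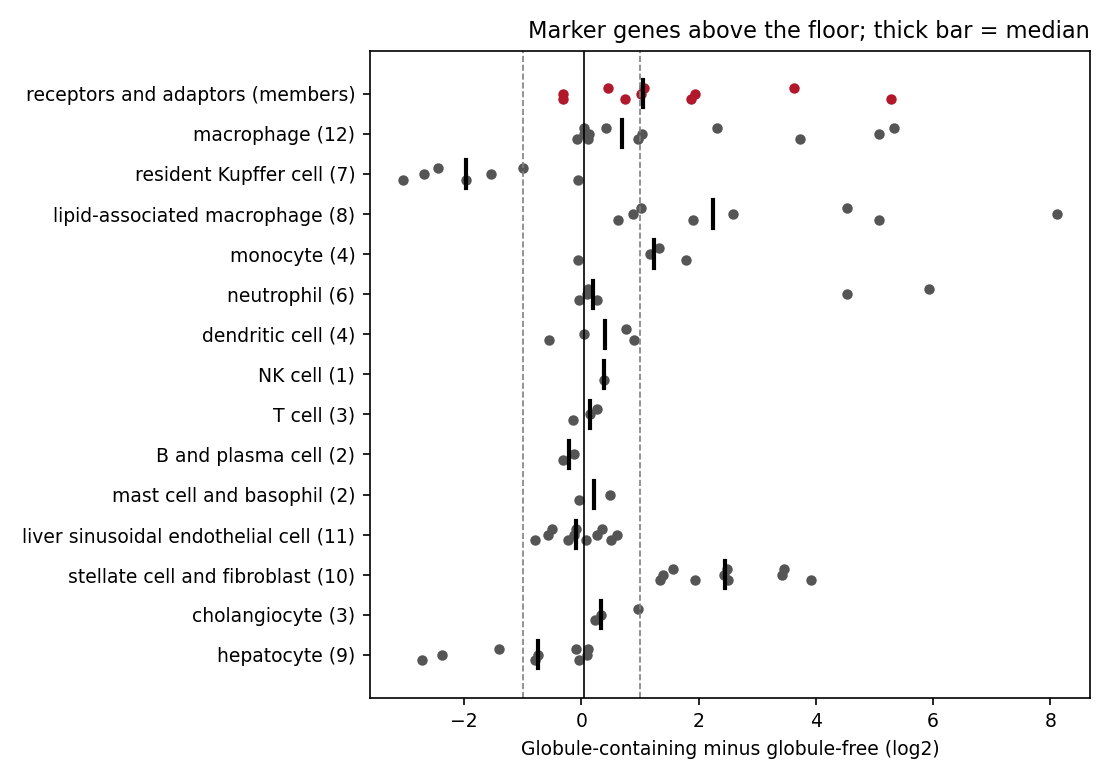
Log2 difference between globule-containing and globule-free areas for marker genes above the floor in 14 cell type lists, with the 10 receptor and adaptor genes in red. Thick bars are medians, the thin line is the median of all genes (0.05), and dashed lines mark 2-fold. Stellate cell (2.46) and lipid-associated macrophage (2.24) markers have the highest medians and resident Kupffer cell markers (-1.98) the lowest.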

How the data were processed

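RNA from laser-captured areas was hybridised to 2 arrays, and 50 ng per array was amplified with the NuGEN Ovation WTA System V2, per the labels' protocols. The authors deposited log2 signals for 72688 probe sets. They name the Transcriptome Analysis Console, without a version, per the submitters' processing notes. Not given in the sources used here are the genome build and the steps of normalization and background correction. Array medians were 4.40 (globule-containing) and 4.49 (globule-free). The log2 scale was read from the values.

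Of the probe sets, 30604 name 1 gene, 2146 several and 39938 none here. Symbols were updated by Entrez ID to RefSeq (GRCm38.p6) for 827, and probe sets of 1 gene were averaged. With 1 array per group no test was run. The number of arrays limits the precision, and arrays have no read depth. Values within 0.2 of an array's maximum were taken as saturated. A fold against a signal at background uses the background value and is given as "at least".

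The members and lists were chosen with earlier results of these data known. The named genes are the 10 members, the 4 genes with the largest absolute difference in each of 8 pathway lists, the 2 largest in each of 14 cell type lists, and relatives of members. Other genes, such as Syk, Btk, Vav1, Plcg2, Ptpn6, Inpp5d, Trem2, Klrk1, Fcer1a, Ms4a2, Alb, Ttr, further oxidase genes, cell type markers and those at background, were chosen after their values were seen. Scaling, floor, threshold, probe set choice, background and the members left in were varied. Scripts were tested on simulated data. Python 3.11.15, numpy 2.4.6, pandas 2.3.3 and statsmodels 0.14.6 were used.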

Additional observations from a re-analysis of the deposited data

How the results depend on the processing

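Directions of all 10 receptor and adaptor genes were the same under 7 alternatives. Only the 4 scalings of the arrays could change every gene. Taking the brightest probe set could change none, since each gene has 1 probe set. Adding probe sets naming several genes changed Pirb alone, and raising dim values to background changed Fcgr1 alone. Over the 7 alternatives, Lilrb4a ranged from 5.16 to 5.38, Tyrobp from 3.42 to 3.72, Fcgr4 from -0.36 to -0.22 and Hcst from -0.39 to -0.22. The count of 6 genes at least 2-fold higher became 5 after quantile normalization, with the median difference of all genes subtracted, with dim values raised or with a 75th-percentile floor, and 2 at a 4-fold threshold. The inhibitory median became 0.75 without Lilrb4a or Sirpa, 1.86 without Pirb or Fcgr2b, and 2.09 as a mean. The gap between inhibitory and activating medians reversed to -0.30 without Lilrb4a or Sirpa. It was 0.82 without Pirb or Fcgr2b and 0.92 with means. With the floor at the 75th percentile, which leaves out Fcgr1, Fcgr4 and Hcst, the activating median was 1.94 and the gap -0.64. Ly6c2 was the only monocyte marker left with that floor, so the list value of -0.053 is that of 1 gene. With background at the 90th percentile, 0 genes lay at background on an array, in place of 1 (Fcgr1). A shift under 0.17, the median gap between probe sets of 1 gene, was taken as no change. No paired analysis was possible because each group is 1 array. Signals near background limit what can be read for Fcgr1, Syk and the lymphocyte markers.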

Other observations

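Other receptor families of myeloid cells were chosen by symbol after the values were seen, and their counts are a description, to be read beside the shares of all genes above the floor that reached 2-fold, which were 6.47% for higher and 5.26% for lower signals. Of 9 Toll-like receptors above the floor, which sense microbial products and nucleic acids, 5 reached 2-fold higher, or 4 with dim signals raised to background, since Tlr9 was then at least 1.22-fold higher. None reached 2-fold lower, and the median difference was 1.01. Tlr13, a sensor of bacterial RNA, was at least 5.67-fold higher, Tlr8 2.46-fold and Tlr7 2.17-fold, while Tlr4 differed by -0.21. Of 5 genes of the SLAM family of leukocyte receptors, 4 were at least 2-fold higher. Cd84 had 9.22 against 6.86, Cd48 was at least 6.27-fold, Slamf9 at least 5.63-fold and Slamf7 at least 3.43-fold higher. Of 7 Ms4a genes, 4 were at least 2-fold higher, with Ms4a7, a macrophage gene, at 8.92 against 6.30, while Ms4a4a differed by -0.32.

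C-type lectins went both ways. Of 22 above the floor, 4 reached 2-fold higher and 3 reached 2-fold lower. Their median was 0.13. Clec7a (Dectin-1), the receptor for fungal glucans with an ITAM-like motif of its own, was 13.6-fold higher, and Clec4a3 4.56-fold. Clec4f of Kupffer cells and Clec2d, a ligand of NK receptors, were 8.28-fold and 6.14-fold lower, and Clec2j 2.63-fold lower. Of 5 killer lectin-like receptors above the floor, none was 2-fold apart, and Klrd1 was at least 1.89-fold higher.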
